A study of Mus musculus with 13 samples.

Results

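The response of wild type mouse liver to diethylnitrosamine (DEN) was read from 4 of the 13 arrays of the study, chosen by their genotype and treatment labels. The 2 untreated arrays (untreated arrays 1 and 2) and the 2 arrays taken 24 h after DEN (DEN arrays 3 and 4) came from mice whose Rb1 gene carried loxP sites around exon 19 and that had no Cre recombinase. This floxed gene without Cre is what the labels call wild type, and both groups carry it. The mice were 14 days old and received a single intraperitoneal dose of 20 mg/kg DEN in saline; the design text describes the untreated controls as saline-treated littermates. The labels name neither the litters nor the single mice, so the p-values reflect array-to-array spread, part of which may be technical. Total RNA from frozen liver was amplified and hybridised to single-colour Affymetrix arrays.

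The remaining 9 arrays enter the model for its estimate of spread and are set beside the wild type arrays at the end. They are heterozygous mice with DEN (2 arrays, 1 functional and 1 floxed Rb1 allele with Cre, also tagged LOH in the labels), N750F mutant mice with DEN (5 arrays) and knockout mice with DEN (2 arrays, floxed Rb1 with Cre). Their Cre transgene used the albumin promoter, so recombination is directed to hepatocytes and the other liver cells keep the floxed gene. Which Rb1 allele pairs with N750F is not in the labels. No untreated array of these genotypes was analysed here.

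DEN causes liver tumours in young mice. Cytochromes P450, chiefly Cyp2e1 of hepatocytes around the central vein, convert it into an agent that ethylates DNA. Damaged DNA activates checkpoint kinases that stabilise p53, which raises transcription of genes for cell cycle arrest, repair and cell death and, through p21 and the DREAM complex, lowers that of genes needed for mitosis. Reactive metabolites also release the transcription factor NRF2, which raises genes of detoxification and glutathione metabolism. In mice of this age the liver still grows, its hepatocytes divide, and fetal genes such as Igf2 are being switched off.

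Levels are log2 of the quantile-normalized intensity plus 16, and a change is DEN minus untreated on this log2 scale, fitted with a term for array run and given ± its standard error (SE). The offset of 16 shrinks the changes of dim genes. Only the wild type DEN, heterozygous and N750F groups have arrays in both runs, so the run term rests on these groups. A fitted change can therefore differ from the difference between the levels printed beside it. A gene was called at an adjusted p of 0.05 in limma's test, adjusted by Benjamini-Hochberg over the 14953 genes tested. An unadjusted p below 0.05 in the same test was found for 2052 of the 14953 genes. List counts at that level are to be read beside this number. Rb1 itself was at 7.27 and 7.15 in the untreated arrays and at 8.04 and 8.01 in the DEN arrays, a change of 0.90 ± 0.37 that did not pass the test (adjusted p = 0.304). Whether this probe set covers exon 19 is not known here, and its level therefore checks no deletion.

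Untreated arrays 1 and 2 and DEN array 3 were run in run 1, and DEN array 4 in run 2; their median deposited intensities were 79.4, 82.1, 82.99 and 55.3. Across all probe sets the untreated arrays correlated at 0.967 with each other and the DEN arrays at 0.897. DEN array 4 correlated with the untreated arrays at 0.892 and 0.894, and DEN array 3 at 0.940 and 0.958, so the run 2 array stood apart from all 3 others. By Xist and Y-linked genes, untreated array 1 came from a male and the 3 other arrays from females. Hepatocyte markers were bright in all 4 arrays: Alb was at 13.01 and 12.97 untreated and at 12.95 and 12.91 after DEN, and the mean over the 15 tested markers was 11.98, 11.94, 11.86 and 11.68. Skeletal muscle and exocrine pancreas genes, which would mark other tissue in the sample, had list means between 6.80 and 6.92, with 0 of 8 and 0 of 5 tested members called by limma, 1 and 0 at an unadjusted p below 0.05, and medians of 0.005 and -0.07.

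DEN changed 103 genes in wild type liver (0.689% of genes tested), of which 45 rose (0.301%) and 58 fell (0.388%). Counts of called list members given below are to be read beside these shares. Genes of the p53 response (Ccng1, Phlda3, Mdm2), of xenobiotic detoxification (Ephx1, Nqo1, Cyp2c38) and of conjugation (Sult1e1) were among those that rose. Imprinted growth genes (Igf2, Peg3), Fabp5 of the fetal and oncofetal list, mitotic genes (Plk1, Ccnb2), metallothioneins (Mt1, Mt2) and macrophage genes (Csf1r, Lyz2) were among those that fell. The fold changes of called genes ran from 2.30 to 24.8, with a median of 3.58. The median change over all genes tested was -0.02, and 48.1% of genes lay above 0.

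**Figure D1:**
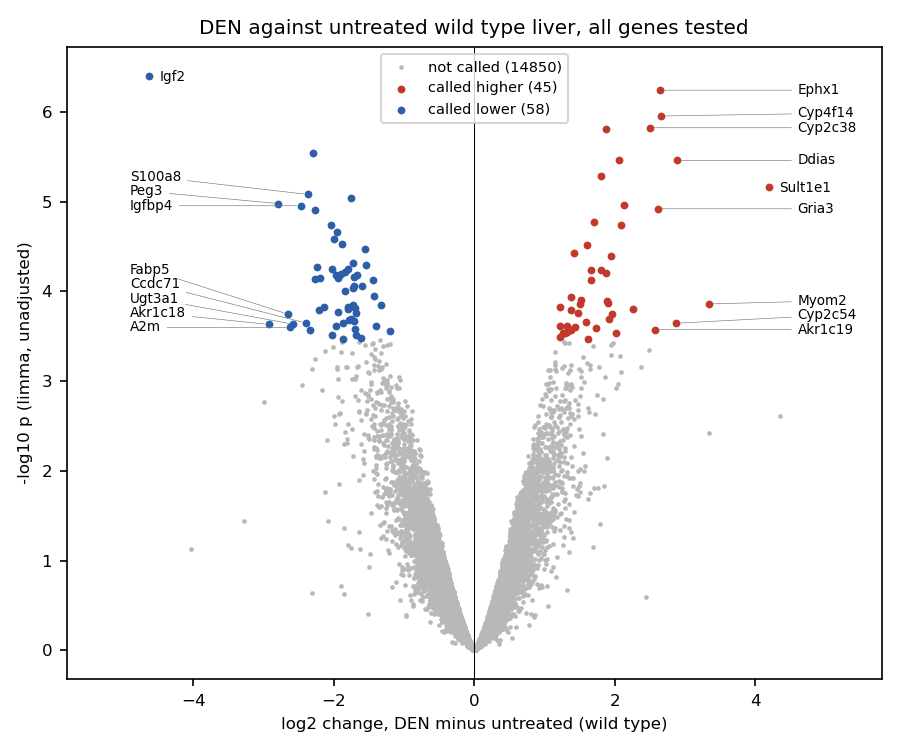
Each point is a gene; the horizontal axis is the log2 change (DEN minus untreated, wild type) and the vertical axis -log10 of limma's unadjusted p, with the 45 genes called higher in red, the 58 called lower in blue and the 9 of largest change named in each direction. Igf2 has the largest fall among called genes (-4.63), Sult1e1 (4.19) starts from the dim end of the scale, and some uncalled genes have changes as large with higher p.

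In 102 of the 103 called genes the untreated and DEN arrays did not overlap. Over all genes such separation was found for 17.4% in the higher and 23.5% in the lower direction and thus also in many uncalled genes. The exception, named after its values were seen, was Pex3, a peroxisome assembly gene, at 6.85 and 7.01 untreated and at 8.32 and 6.98 after DEN. Its fitted rise was 1.29 ± 0.27, with the run 2 array inside the untreated range. In run 1 alone, DEN array 3 differed from the untreated mean in the fitted direction for all 103 genes. The same arrays entered the fit that chose these genes, so the shared sign was nearly fixed in advance and adds no support. The number of calls depended on single arrays. Dropping untreated array 1 left 4 calls, dropping untreated array 2 left 43, dropping DEN array 4 left 15, and dropping DEN array 3 gave 147. Of the arrays of other genotypes, leaving out either heterozygous array gave 55 calls, N750F arrays 1 to 5 gave 67, 52, 62, 86 and 62, and either knockout array gave 226. With the run 1 arrays alone 1 gene passed, and it was not among the 103. With no run term 37 genes passed, and with the Y-linked level of each array as a covariate for sex 26 passed. List medians, given below, also moved. Without 1 of the 4 arrays the median turned its sign in 13 of 45 lists, and in 38 it turned or moved by over 1.5 times. The 7 that stayed within this were p53 arrest targets, NRF2 targets, Cyp2 and Cyp3 genes, G2/M genes, collagens, stellate cells and erythroid cells. Igf2, Ephx1, Cyp2c38 and Ces2e were the 4 genes still called without untreated array 1. Every called gene that was tested under a setting kept its direction there, over 28 other settings. All of these settings reuse the arrays that chose the genes, so a kept direction was to be expected from the choice.

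**Figure D2:**
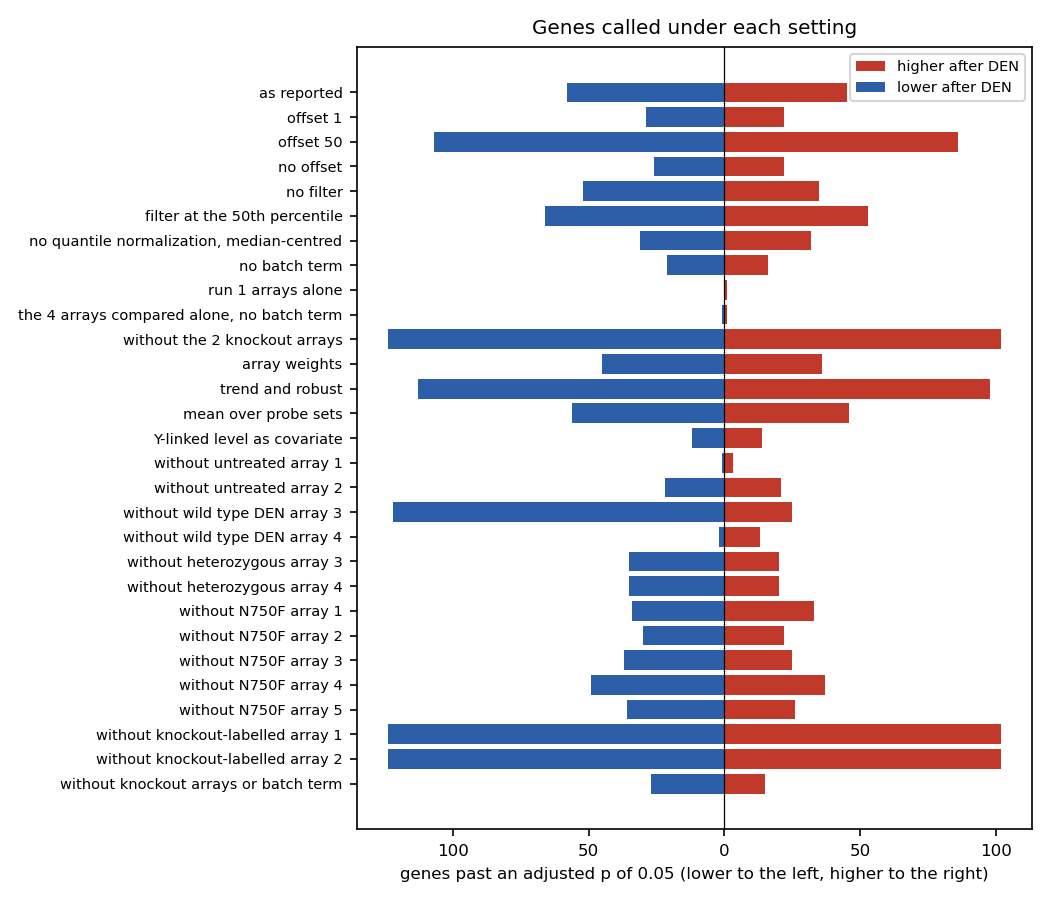
Bars give the number of genes past an adjusted p of 0.05 under each setting, higher after DEN to the right in red and lower to the left in blue. The reported setting has 45 and 58, run 1 alone has 1 and 0, and leaving out the knockout arrays gives 102 and 124.

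The p53 targets for arrest and feedback had 5 of 24 tested members called, all higher, with a list median of 0.73. Of all genes 0.301% were called higher. At an unadjusted p below 0.05 in limma's test the list had 12 members, 11 higher and 1 lower. Cdkn1a (p21), the best known of them, and Trp53 itself had no probe set with a single gene symbol. They were therefore not among the 14953 genes tested. Probe sets with several gene symbols were tested apart, as given at the end. Their symbols were not matched to the lists, so neither a change nor a lack of change in Cdkn1a or Trp53 can be read here. Ccng1, which encodes cyclin G1 and feeds back on p53, was at 10.59 and 10.69 in the untreated arrays and at 12.55 and 12.43 after DEN. It thus rose to a similar level in both DEN arrays, by 1.87 ± 0.23 (adjusted p = 0.00463), and by 1.92 in run 1. Phlda3, a repressor of Akt signalling, was close to the dim end of the scale at 5.04 and 4.72 untreated. It reached 7.10 and 6.54 after DEN, a rise of 2.08 ± 0.33 (adjusted p = 0.0136). Its untreated array 2 lay within the range of Y-linked genes in female arrays (4.13 to 4.94), so the size of the rise is uncertain. Over the settings in which Phlda3 was tested the fitted change ran from 1.32 to 3.04.

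Trp53inp1, a p53-induced nuclear protein, went from 9.30 and 8.44 to 10.90 and 9.81 and rose by 1.91 ± 0.38 (adjusted p = 0.042). Mdm2, the ubiquitin ligase that degrades p53, went from 8.77 and 8.62 to 10.22 and 9.29 and rose by 1.59 ± 0.32 (adjusted p = 0.0428). In both genes DEN array 4 was below DEN array 3 and still above both untreated arrays. Ei24, an endoplasmic reticulum protein found as an etoposide-induced gene, went from 10.09 and 10.43 to 11.56 and 11.61, a rise of 1.22 ± 0.26 (adjusted p = 0.0482). Without untreated array 1, untreated array 2, DEN array 3 and DEN array 4, respectively, 0, 1, 1 and 1 members of this list were called, and the list median stayed between 0.57 and 0.81 over all settings.

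Promoters of the called p53 targets were searched for the p53 half-site on both strands, over the 250 bases before each start in RefSeq's GRCm38.p6 annotation. The half-site reads the same on both strands and was counted once per position. By symbol 11813 of the 14953 tested genes had an entry. Of the called members of the p53 lists with a promoter entry, 3 of 5 held a match, against 10 of 44 tested members and 7.416% of tested genes. The 3 windows are shown since they belong to genes that rose, with the match in capitals and 5′ to 3′ on the gene's minus strand.
Ccng1, chr11:40755432-40755501: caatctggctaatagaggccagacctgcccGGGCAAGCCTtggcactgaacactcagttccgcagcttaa
Mdm2, chr10:117710905-117710974: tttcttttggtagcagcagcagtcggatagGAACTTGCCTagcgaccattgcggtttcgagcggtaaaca
Ei24, chr9:36797335-36797374: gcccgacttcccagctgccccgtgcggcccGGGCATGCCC
These matches are descriptions of the sequence and were not measured for binding.

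Among the p53 targets of apoptosis and death receptors limma called 0 of 17 tested members, and the median was 0.19. In this list 5 had an unadjusted p below 0.05 in limma's test, as did 2052 of all 14953 genes. Bax and Gdf15 had no probe set with a single symbol. The smallest p values of this list were those of Steap3, a metalloreductase, with a change of -1.57 ± 0.49 (adjusted p = 0.163), and Aen, an apoptosis-enhancing nuclease, with 1.00 ± 0.40 (adjusted p = 0.293). Of 13 tested p53 targets in repair and nucleotide supply only Ephx1, which is shared with the NRF2 list, was called, and the median was 0.28.

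Other repair and checkpoint genes had few calls. Among 19 tested genes of translesion synthesis and alkylation repair limma called 0 (3 at an unadjusted p below 0.05, median 0.004), with Rev1, a translesion polymerase, at 0.81 ± 0.26 (adjusted p = 0.194) and the glycosylase gene Neil3 at -1.36 ± 0.54 (adjusted p = 0.284). Among 19 genes of the checkpoint and homologous recombination 1 was called (median -0.12). It was Wee1, the kinase that holds Cdk1 inactive, which was at 6.76 and 7.19 untreated and at 8.89 and 8.35 after DEN. Wee1 rose by 1.94 ± 0.33 (adjusted p = 0.0226), by 1.91 in run 1. Ddias, a gene named for its suppression of apoptosis after DNA damage and on none of the lists, went from 6.03 and 5.90 to 8.87 and 7.85. Ddias rose by 2.89 ± 0.39 (adjusted p = 0.00649).

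**Figure D3:**
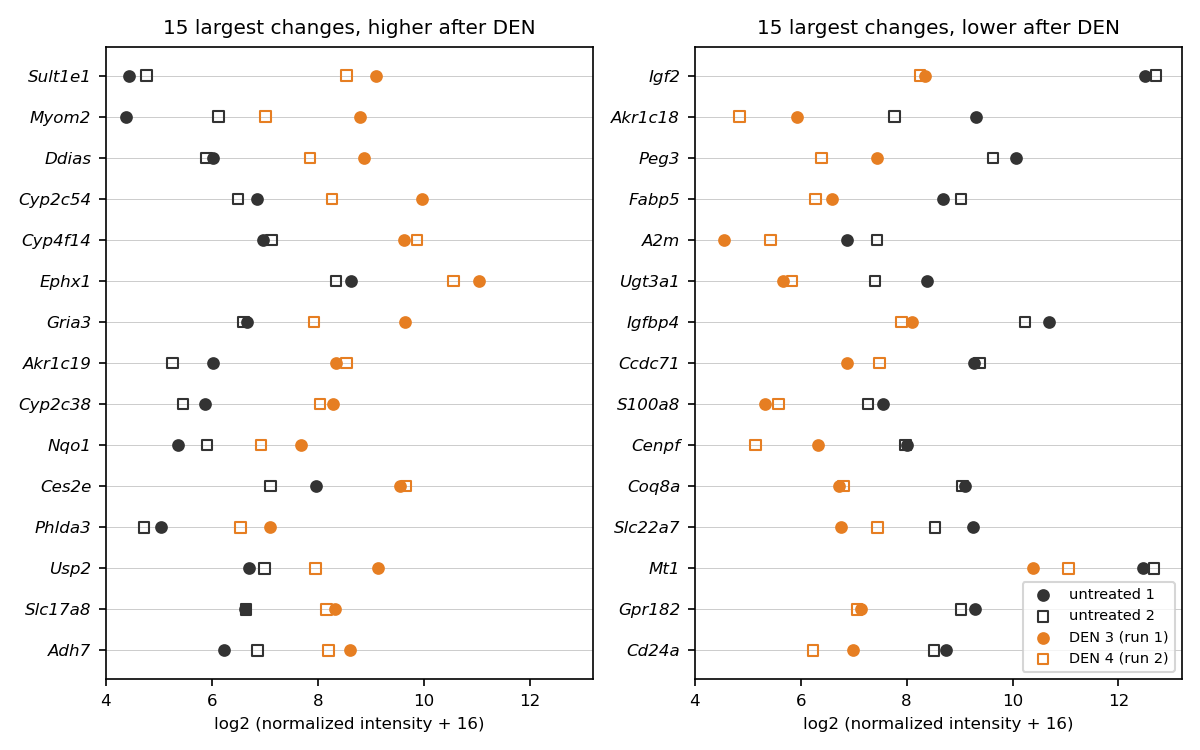
Levels (log2 of normalized intensity + 16) in each wild type array for the 15 called genes of largest change in each direction; black marks are untreated arrays 1 (filled circle) and 2 (open square), orange marks DEN arrays 3 (filled circle, run 1) and 4 (open square, run 2). Both orange marks lie beyond both black marks in every gene shown, with the smallest gap in Myom2 (6.13 untreated against 7.01 after DEN).

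Of 34 tested NRF2 targets, 5 rose and 1 fell, with a list median of 0.45 and 25 members above 0. Of all genes 0.301% were called higher and 0.388% lower. At an unadjusted p below 0.05 in limma's test the list had 16 members, 15 higher and 1 lower. Ephx1, the microsomal epoxide hydrolase, was at 8.62 and 8.34 untreated and at 11.05 and 10.56 after DEN. Both DEN arrays were well above both untreated arrays, and the rise of 2.64 ± 0.30 had the smallest adjusted p of the fit together with Igf2 (0.00428). Nqo1, a quinone reductase and the usual marker of NRF2 activity, went from 5.36 and 5.91 to 7.69 and 6.93 and rose by 2.26 ± 0.44 (adjusted p = 0.0364). Its untreated levels lay at or below 5.94, the level under which genes were left out on their mean, so its fold depends on the offset.

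Aox1, an aldehyde oxidase, went from 7.02 and 6.82 to 8.81 and 8.65, a rise of 1.90 ± 0.36. Gstp1, a glutathione transferase, went from 8.15 and 7.70 to 9.57 and 9.96, a rise of 1.87 ± 0.33; its near-identical neighbour Gstp2 had no probe set of its own, so which of the pair gave the signal is uncertain. Ugdh, which makes UDP-glucuronic acid, went from 7.99 and 7.88 to 10.04 and 9.66, a rise of 1.80 ± 0.32. In these 3 genes the DEN arrays lay close together and clear of the untreated arrays. Osgin1, an oxidative stress-induced growth inhibitor, moved the other way, from 9.70 and 9.13 to 7.60 and 7.97 (-1.80 ± 0.31, adjusted p = 0.0249). Without untreated array 1, untreated array 2, DEN array 3 and DEN array 4, respectively, 1, 1, 2 and 2 members of the list were called higher, and 0, 1, 0 and 0 lower.

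The core letters of the antioxidant response element, TGACNNNGC on either strand, lay before the start of 1 of the 6 called NRF2 targets, 9 of 29 tested members with a promoter entry and 13.41% of tested genes. The gene was Ugdh, whose window holds 2 matches, the second on the opposite strand, as shown in capitals on the gene's minus strand.
Ugdh, chr5:65435898-65436004: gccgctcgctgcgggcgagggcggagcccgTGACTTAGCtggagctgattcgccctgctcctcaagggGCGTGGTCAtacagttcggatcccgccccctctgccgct
No match was found in this window for Ephx1, Nqo1, Gstp1, Aox1 or Osgin1, which says only that these letters are not in these 250 bases.

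Among 34 tested Cyp2 and Cyp3 genes, the P450s of drug metabolism, 2 rose and the median was 0.23. Cyp2c38 went from 5.87 and 5.45 to 8.29 and 8.04 (2.50 ± 0.31, adjusted p = 0.00463), and kept its call in 26 of 28 settings. Its untreated levels lay under 5.94, the level under which genes were left out on their mean, so its fold depends on the offset. Cyp2c54 went from 6.86 and 6.49 to 9.97 and 8.27 (2.87 ± 0.58, adjusted p = 0.0428), with DEN array 3 well above DEN array 4. The Cyp2c genes are near-identical copies, so signal can be shared among them. Cyp2e1, the main activator of DEN, was at 12.38 and 12.59 untreated and at 12.83 and 12.31 after DEN, with overlapping groups and a change of 0.37 ± 0.28 (adjusted p = 0.628).

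The DEN arrays differed widely in a pair of Cyp2b genes, picked out after their values were seen. Cyp2b9 was at 10.88 and 10.78 untreated and at 4.81 and 11.21 after DEN, and Cyp2b13 was at 8.10 and 8.37 untreated and at 4.41 and 9.69 after DEN. The fits gave -4.03 ± 2.09 (adjusted p = 0.423) and -1.90 ± 1.39 (adjusted p = 0.611). DEN array 3 was thus near the dim end of the scale for both genes, while DEN array 4 was above the untreated arrays, and both came from females.

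Of 9 tested Cyp4 genes, Cyp4f14 rose from 6.98 and 7.13 to 9.64 and 9.87 (2.66 ± 0.32, adjusted p = 0.00463), and the median of the list was 0.21. Conjugating enzymes moved in both directions: of 18 tested, 2 rose and 1 fell (median -0.004). Sult1e1, the estrogen sulfotransferase, was near the dim end in both untreated arrays, at 4.43 and 4.77, and stood at 9.10 and 8.55 after DEN. The gene passed the test (4.19 ± 0.60, adjusted p = 0.0102), but both untreated levels lay within the range of Y-linked genes in female arrays (4.13 to 4.94), so the size of the rise is not measured and has no rank. Against the top of that range the DEN arrays were at least 14.8-fold higher, and over the settings in which the gene was tested the fitted change ran from 3.05 to 5.67. Ugt2b1 went from 9.23 and 9.50 to 10.89 and 10.03 (1.51 ± 0.29), and Ugt3a1, a UDP-glycosyltransferase, from 8.39 and 7.40 to 5.66 and 5.84 (-2.58 ± 0.52).

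Members of the Akr1c family of steroid reductases, also similar in sequence, moved in opposite directions. Akr1c19 went from 6.02 and 5.26 to 8.35 and 8.54 (2.57 ± 0.53, adjusted p = 0.0439). Akr1c18, a 20-alpha-hydroxysteroid dehydrogenase, went from 9.30 and 7.77 to 5.93 and 4.84 (-2.93 ± 0.59, adjusted p = 0.0431). The untreated arrays of Akr1c18 lay apart from each other, with the male array higher. Its DEN array 4 lay within the dim range of 4.13 to 4.94, so the size of the fall is uncertain. The other 14 tested members of the list were not called.

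Ces2e, a carboxylesterase, went from 7.97 and 7.10 to 9.56 and 9.67 (2.13 ± 0.32), and Adh7, an alcohol and retinol dehydrogenase, from 6.24 and 6.86 to 8.61 and 8.21 (1.96 ± 0.39). Aldh1a1, which makes retinoic acid and is highest around the central vein, went from 10.08 and 10.29 to 11.91 and 11.75 (1.70 ± 0.27). Together with Cyp2c54 it was 1 of 2 called among 22 tested pericentral genes (median 0.26), and limma called 0 of 15 tested periportal genes (9 at an unadjusted p below 0.05, median -0.27). The pericentral median was 0.12 without untreated array 1, 0.11 without DEN array 4 and 0.02 with the sex covariate, and the periportal median was -0.88 without untreated array 2. The difference between these lists was not tested.

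Genes usually described in nerve, muscle or the clock also rose. Gria3, a glutamate receptor subunit, went from 6.66 and 6.60 to 9.65 and 7.93 (2.61 ± 0.39), and Slc17a8, a vesicular glutamate transporter, from 6.63 and 6.65 to 8.33 and 8.17 (2.02 ± 0.42). Myom2, a protein of the muscle M-band, was at 4.37 and 6.13 untreated and at 8.80 and 7.01 after DEN (3.33 ± 0.64), with the arrays of each group far apart. Its untreated array 1 lay within the dim range of 4.13 to 4.94, so the size of the rise is uncertain. Usp2, a deubiquitinase that cycles with the clock, went from 6.70 and 6.99 to 9.14 and 7.95 (2.06 ± 0.28, adjusted p = 0.00649) and was the only called member of 16 tested clock genes (median -0.09). The labels give no time of day for tissue collection.

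**Figure D4:**
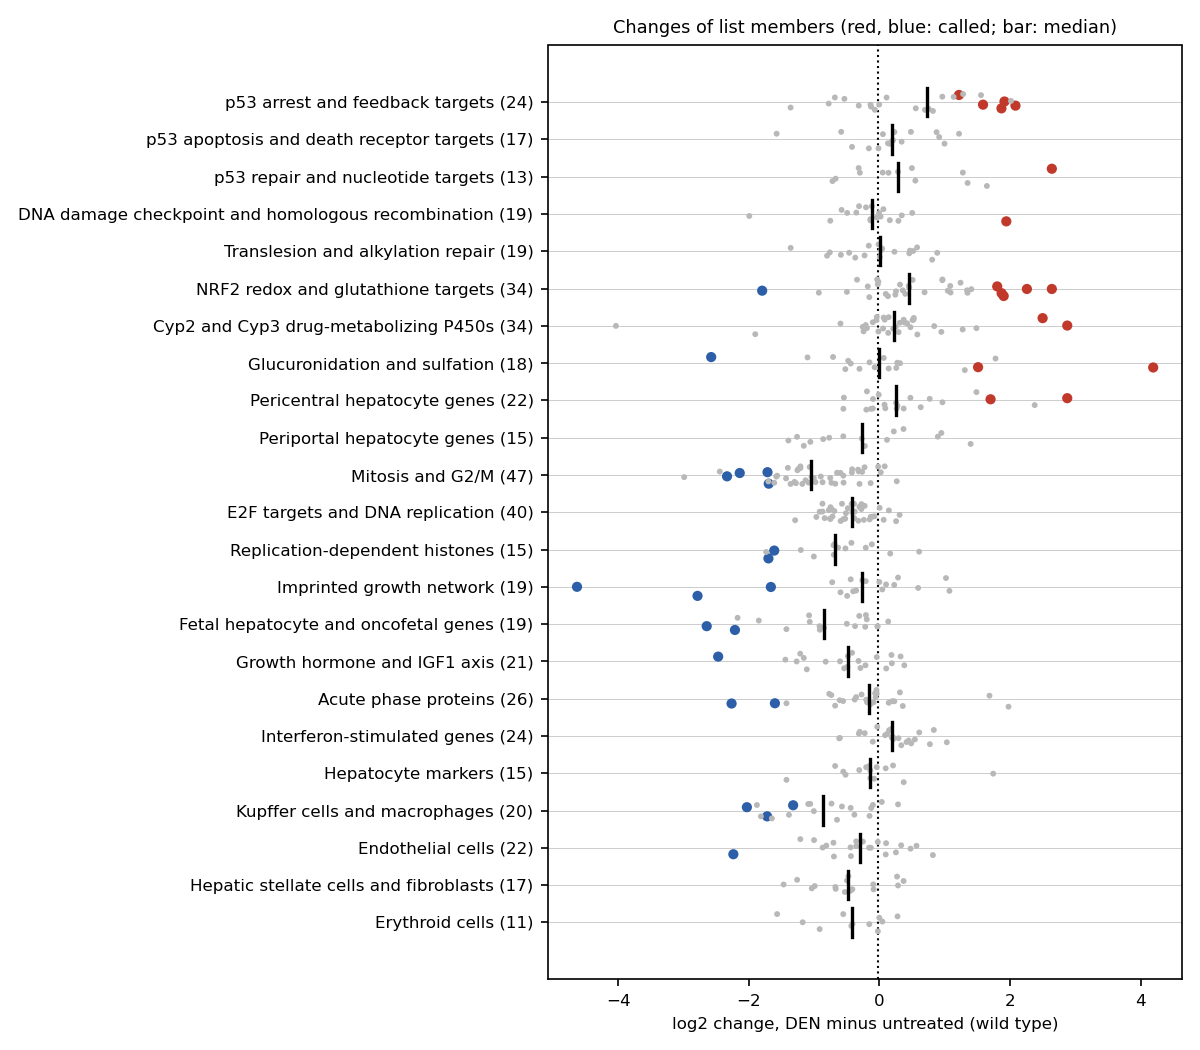
Each point is a tested member of the list named at the left (number tested in parentheses); the horizontal axis is the log2 change, red and blue points were called higher and lower, the black bar is the list median and the dotted line the median over all genes (-0.02). The G2/M list has its median at -1.04 and the p53 arrest list at 0.73.

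Of 47 tested genes of mitosis and G2/M 4 fell and 0 rose (21 and 0 at an unadjusted p below 0.05), and the list median was -1.04, against -0.02 over all genes. Of all genes 0.388% were called lower. In 37 of the 47 both DEN arrays lay below both untreated arrays, where 23.5% of all genes did so. The mean over the list was 7.42 and 7.22 untreated and 6.40 and 6.27 after DEN, so the arrays did not overlap. Without each of the 4 arrays in turn the median stayed between -1.02 and -0.87, and 0, 0, 1 and 0 members were called (in the order untreated arrays 1 and 2, DEN arrays 3 and 4).

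Plk1, the polo-like kinase of mitotic entry, was at 8.74 and 8.38 untreated and at 6.42 and 6.87 after DEN (-2.14 ± 0.41, adjusted p = 0.0364). Cenpf, a kinetochore protein, was at 8.01 and 7.98 untreated and at 6.33 and 5.15 after DEN (-2.33 ± 0.48, adjusted p = 0.0439), and its fall was -1.67 in run 1. Ccnb2, cyclin B2, went from 8.23 and 8.46 to 6.66 and 6.78 (-1.71 ± 0.31), and Cdc20, an activator of the anaphase-promoting complex, from 7.03 and 6.67 to 5.30 in both DEN arrays (-1.70 ± 0.33). Mki67, the proliferation marker, was at 8.76 and 8.98 untreated and at 7.20 and 7.42 after DEN, a change of -1.57 ± 0.51 that did not pass the test (adjusted p = 0.187). For Mki67 the SE is set by all 13 arrays, and the knockout arrays stood at 10.14 and 7.95.

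The letters of the cell cycle homology region, TTTGAA on either strand, lay before the start of 17 of 40 tested G2/M genes with a promoter entry (42.5%), against 14.53% of all tested genes. Among the 4 that fell it was found in Ccnb2 and Cdc20, whose windows are given on the minus strand of each gene with the letters in capitals.
Ccnb2, chr9:70421686-70421751: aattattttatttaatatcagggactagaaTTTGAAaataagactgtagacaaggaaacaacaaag
Cdc20, chr4:118437344-118437391: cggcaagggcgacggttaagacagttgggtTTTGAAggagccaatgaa
These shares describe the lists and were not tested, and promoters of different base composition differ in how often they hold such letters.

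Of 40 tested E2F targets and replication genes limma called 0 (7 at an unadjusted p below 0.05, against 2052 of all 14953 genes), and the median was -0.42. Dnmt1, the maintenance DNA methyltransferase, was at 9.72 and 9.93 untreated and at 8.92 and 8.87 after DEN (-0.97 ± 0.27, adjusted p = 0.126), and Pola1, a DNA polymerase alpha subunit, changed by -1.29 ± 0.41 (adjusted p = 0.172). E2f1, E2f2, Ccne1 and Cdc6 were under the filter for dim genes. Of 15 tested replication-dependent histone genes 2 fell, H4c4 (-1.70 ± 0.35) and H4c14 (-1.61 ± 0.34), with a median of -0.69. Histone genes are near-identical copies, and 25 of the 46 listed had no probe set with a single symbol, so the assignment to single genes is uncertain.

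Among inhibitors of CDKs and G1 cyclins 1 of 22 tested was called. It was Cdkn1c (p57), an imprinted inhibitor, which went from 9.33 and 8.95 to 7.48 and 7.94 (-1.66 ± 0.30, adjusted p = 0.0249). Imprinted genes that act on growth had 3 of 19 members called, all lower (0.388% of all genes were), with a median of -0.26. At an unadjusted p below 0.05 in limma's test the list had 6 members, 2 higher and 4 lower. Igf2, the fetal growth factor, was among the brightest genes in the untreated arrays, at 12.49 and 12.71, and stood at 8.35 and 8.25 after DEN. The groups stood far apart, while the arrays within each group lay close together. Igf2 fell by 4.63 ± 0.52 on the log2 scale, the largest fall among called genes, and was called in 27 of 28 settings with changes from -5.24 to -4.25.

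Peg3, a paternally expressed zinc finger gene, went from 10.06 and 9.63 to 7.45 and 6.39 (-2.79 ± 0.41, adjusted p = 0.0109). H19, the non-coding neighbour of Igf2, had no probe set with a single symbol. Without untreated array 1, untreated array 2, DEN array 3 and DEN array 4, respectively, 1, 2, 2 and 1 imprinted genes were called lower, and without DEN array 3 another 1 was called higher.

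Fetal hepatocyte and oncofetal genes had 2 of 19 tested members called lower and a median of -0.85, and 13 of them had both DEN arrays below both untreated arrays (23.5% of all genes did). The median was -0.51 without DEN array 3 and -0.48 with the sex covariate. Fabp5, a fatty acid binding protein, went from 8.68 and 9.02 to 6.59 and 6.28 (-2.65 ± 0.52), and its second probe set changed by -2.62. Of all called genes, 4 had another probe set. Those of Ube2h and Zfp788 also lay close to the one used, but that of Elob changed by -0.002 against -1.83. Cd24a, a surface protein of progenitor and blood cells, went from 8.74 and 8.51 to 6.98 and 6.23 (-2.21 ± 0.43). Afp, alpha-fetoprotein, chosen after its values were seen, was at 10.71 and 9.16 untreated and at 8.27 and 6.90 after DEN, with a change of -1.85 ± 0.83 (adjusted p = 0.343). The male array was again the higher untreated array for Afp. Without untreated array 1, untreated array 2, DEN array 3 and DEN array 4, respectively, 0, 0, 3 and 0 members of this list were called.

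Of 21 tested genes of the growth hormone and IGF1 axis only Igfbp4, an IGF binding protein, was called. It went from 10.69 and 10.23 to 8.09 and 7.90 (-2.47 ± 0.37, adjusted p = 0.0109), and the list median was -0.48. Foxa2, a transcription factor of hepatocyte identity, went from 9.0 and 9.15 to 7.51 and 7.73 (-1.69 ± 0.33) and was the only called member of 22 hepatocyte transcription factors (median -0.07).

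Mt1 and Mt2, the metallothioneins that bind zinc and are induced by stress and glucocorticoids in other settings, were lower after DEN. Mt1 went from 12.46 and 12.67 to 10.38 and 11.06 (-2.26 ± 0.34, adjusted p = 0.0109) and Mt2 from 12.08 and 12.15 to 10.56 and 11.09 (-1.60 ± 0.29, adjusted p = 0.0278). They were the only called members of both the 11 tested metallothionein and zinc transport genes (median -0.18) and the 26 tested acute phase genes (median -0.16). Without untreated array 1, untreated array 2, DEN array 3 and DEN array 4, respectively, 0, 0, 1 and 0 of the metallothionein list were called.

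Stress and inflammation lists held 1 call. The integrated stress and unfolded protein response (26 tested), the immediate early and NF-kB response (17) and interferon-stimulated genes (24) had 0 calls by limma, with 6, 3 and 1 members at an unadjusted p below 0.05 and medians of 0.10, -0.14 and 0.20. The interferon median was 0.63 without DEN array 3 and -0.0002 without DEN array 4, and the immediate early median was 0.01 without untreated array 2. Jun, an immediate early transcription factor, was at 5.79 and 6.52 untreated and at 8.36 and 7.95 after DEN, and its change of 2.05 ± 0.50 did not pass (adjusted p = 0.0818). Atf5, a transcription factor of the stress response, had overlapping groups, at 8.85 and 11.10 untreated and at 7.29 and 10.95 after DEN (-2.10 ± 0.62, adjusted p = 0.146). Of 10 tested heat shock genes Hsph1, a co-chaperone of Hsp70, rose from 9.28 and 9.59 to 10.96 and 11.57 (1.66 ± 0.29).

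Lists of lipid and bile acid metabolism held single calls. Elovl5, which elongates polyunsaturated fatty acids, went from 11.05 and 10.95 to 9.02 and 9.25 (-1.88 ± 0.31), the only call among 17 tested genes of fatty acid synthesis. Acot1, an acyl-CoA thioesterase, went from 6.32 and 6.54 to 7.97 and 8.61 (1.67 ± 0.30), the only call among 27 genes of fatty acid oxidation. Slc22a7, an organic anion transporter, went from 9.25 and 8.53 to 6.77 and 7.45 (-2.27 ± 0.41), the only call among 22 genes of bile acid synthesis and transport. Limma called 0 genes of cholesterol synthesis (17 tested), of the urea cycle and amino acid catabolism (34) and of gluconeogenesis and glycolysis (20), with 3, 12 and 6 at an unadjusted p below 0.05 and medians of 0.36, -0.06 and -0.30. The cholesterol median was -0.13 without DEN array 4 and 0.73 without DEN array 3, and the gluconeogenesis median was -0.05 without untreated array 1. In these lists Tat, which degrades tyrosine, was at 8.18 and 8.15 untreated and at 10.00 and 9.03 after DEN (1.74 ± 0.44, adjusted p = 0.0917), and Pcx, pyruvate carboxylase, changed by -1.25 ± 0.32 (adjusted p = 0.0973). Coq8a, an atypical kinase of coenzyme Q synthesis and on none of the lists, went from 9.09 and 9.05 to 6.73 and 6.81 (-2.30 ± 0.30, adjusted p = 0.00649) and was called in 25 of 28 settings.

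Macrophages of the liver, the Kupffer cells, line the sinusoids and take up debris. Of 20 tested macrophage markers 3 fell (0.388% of all genes did) and 0 rose. In 16 both DEN arrays lay below both untreated arrays (as 23.5% of all genes did), and the median was -0.87. At an unadjusted p below 0.05 in limma's test the list had 11 members, all lower. Csf1r, the receptor for macrophage colony-stimulating factor, went from 8.62 and 8.08 to 6.38 and 5.69 (-2.03 ± 0.36, adjusted p = 0.0249), Lyz2, lysozyme, from 8.45 and 8.38 to 7.14 and 7.00 (-1.32 ± 0.25), and Cd5l, a secreted macrophage protein, from 8.84 and 7.79 to 6.45 and 7.73 (-1.72 ± 0.33). The second DEN array of Cd5l nearly met the lower untreated array. In bulk tissue, fewer cells of a type and less RNA per cell cannot be told apart. The list mean was 8.42 and 8.06 untreated and 7.35 and 7.23 after DEN. Without untreated array 1, untreated array 2, DEN array 3 and DEN array 4, respectively, 0, 2, 1 and 0 members were called, with medians of -0.79, -0.98, -0.57 and -0.83.

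Single genes were called among the markers of other cells. S100a8, a calcium-binding protein of neutrophils, went from 7.56 and 7.27 to 5.33 and 5.58 (-2.37 ± 0.35, adjusted p = 0.0109), the only call among 9 tested genes of monocytes and neutrophils (median -0.19). Gpr182, a receptor of sinusoidal endothelium, went from 9.29 and 9.03 to 7.14 and 7.06 (-2.24 ± 0.39, adjusted p = 0.0249), the only call among 22 tested endothelial genes (median -0.31). Stellate cells and fibroblasts (17 tested, median -0.48), collagens and matrix (26, -0.30), T, NK and B cells (9, -0.07), cholangiocytes (9, -0.13), erythroid cells (11, -0.41) and megakaryocytes (9, -0.27) had 0 calls by limma. At an unadjusted p below 0.05 they had 5, 4, 0, 2, 3 and 1. The 15 hepatocyte markers had 0 calls and 4 at an unadjusted p below 0.05 (median -0.14). The part of cell composition in the other lists was not tested.

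Further large falls were those of A2m and Ccdc71. A2m, alpha-2-macroglobulin, a protease inhibitor, went from 6.87 and 7.44 to 4.55 and 5.43 (-2.62 ± 0.54, adjusted p = 0.0432). Its DEN array 3 lay within the dim range of 4.13 to 4.94, so the size of the fall is uncertain. Ccdc71 went from 9.28 and 9.38 to 6.88 and 7.48 (-2.40 ± 0.49, adjusted p = 0.0428). Of the 103 called genes, 46 were on a list and 57 on none.

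The arrays of the other genotypes, all after DEN, were set beside the wild type. The comparisons share the wild type DEN arrays with each other and with the DEN comparison above, so a gene low in those arrays in one is low in all, and the values stand side by side only. No untreated arrays of the other genotypes entered, and whether DEN acted differently by genotype was not tested. Called genes numbered 1 for heterozygous minus wild type (0.00669%), 212 for N750F (1.42%) and 7 for knockout (0.0468%), all from limma. Wild type DEN mice were females and heterozygous and knockout mice males by the same genes, so sex and genotype cannot be told apart there; of the N750F mice 4 were females and 1 a male. Ccng1 was at 12.69 and 12.54 in heterozygous, 12.36 to 12.57 in N750F and 12.72 and 12.46 in knockout arrays. Its differences from wild type with DEN were 0.13 ± 0.22, 0.01 ± 0.19 and 0.09 ± 0.23, in the same order, and did not pass (adjusted p from 0.941 to 0.99). Ephx1 differed by 0.01 ± 0.29, -0.52 ± 0.24 and -0.25 ± 0.30, none of which passed (adjusted p from 0.341 to 1).

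Other genes that DEN changed in wild type differed between genotypes. Igf2 was at 7.75 and 8.89 in heterozygous arrays, as in wild type with DEN, at 10.96 to 12.60 in N750F arrays and at 11.41 and 9.85 in knockout arrays. The N750F level was 3.72 ± 0.41 above wild type with DEN (adjusted p = 0.00235), and the knockout difference of 2.66 ± 0.52 did not pass (adjusted p = 0.11). Sult1e1 was at 9.84 and 10.22 in heterozygous, at 4.35 to 5.29 in N750F and at 4.94 and 7.37 in knockout arrays, and N750F was lower than wild type with DEN (adjusted p = 0.00235). In 3 of the 5 N750F arrays it lay within the dim range, so the fitted difference of -3.98 ± 0.48 is no measure of size, and with these arrays set to the top of that range wild type with DEN was at least 13.5-fold higher. Cenpf was at 8.39 to 9.20 in N750F and at 9.48 and 8.06 in knockout arrays, which lay 3.16 ± 0.38 (adjusted p = 0.00235) and 3.11 ± 0.48 (adjusted p = 0.0343) above wild type with DEN, and at 5.74 and 6.32 in heterozygous arrays.

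Akr1c18 was lower in wild type with DEN than in each other treated group. It was at 10.47 and 10.32 in heterozygous, 8.41 to 10.42 in N750F and 10.51 and 10.88 in knockout arrays, above wild type with DEN by 5.01 ± 0.56 (adjusted p = 0.00641), 4.17 ± 0.47 (adjusted p = 0.00235) and 5.09 ± 0.59 (adjusted p = 0.0102). Wild type DEN array 4 (4.84) lay within the dim range, so the sizes of these differences are uncertain.

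**Figure D5:**
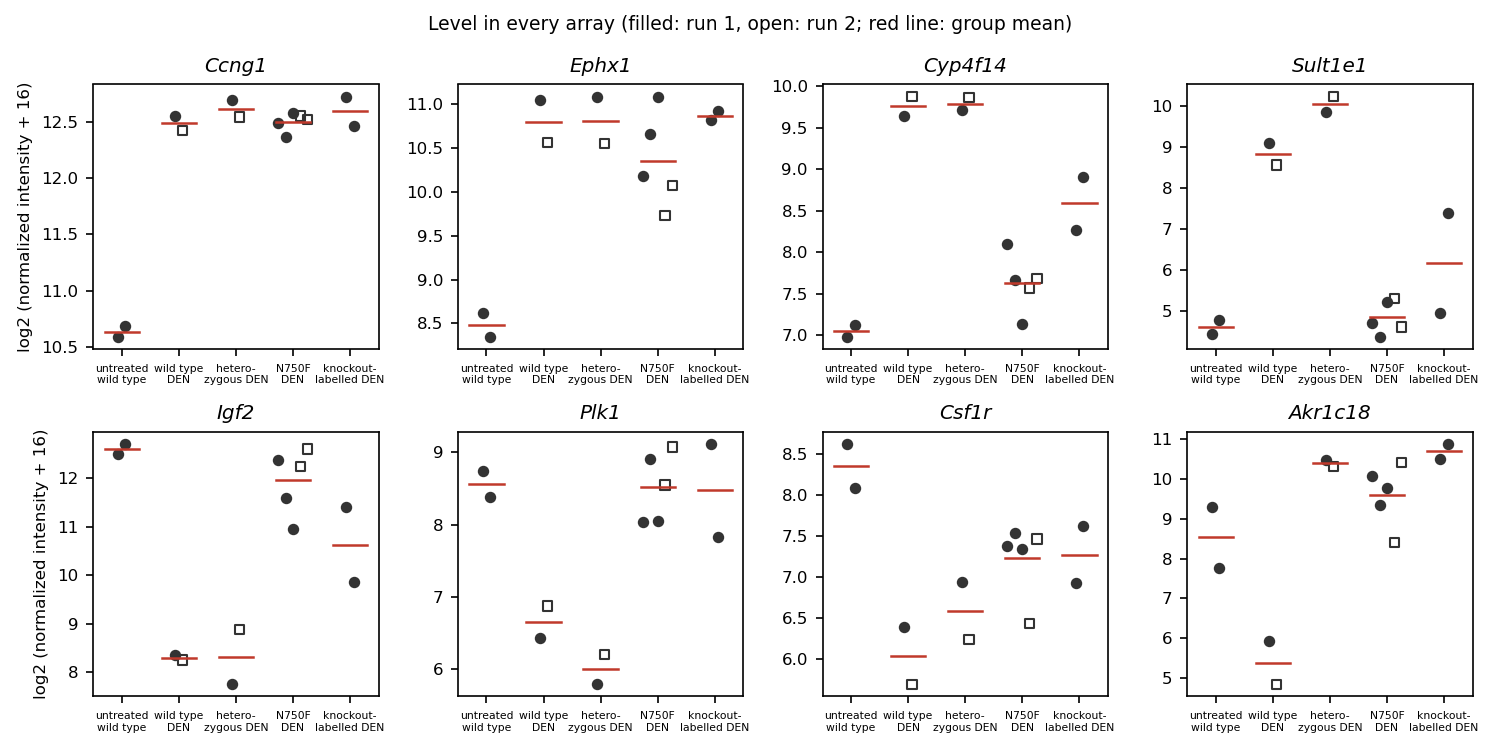
Level (log2 of normalized intensity + 16) of 8 genes in all 13 arrays by group; filled circles are run 1, open squares run 2, and red lines group means. Ccng1 and Ephx1 are high in all treated groups, while Igf2, Plk1, Cyp4f14 and Sult1e1 differ between wild type with DEN and N750F with DEN. Akr1c18 is lowest in wild type with DEN (5.93 and 4.84).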

How the data were processed

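Mouse liver RNA was measured on 13 single-colour Affymetrix arrays, of which 4 (2 untreated and 2 DEN, all floxed without Cre) form the comparison. The files hold 1 linear intensity per probe set as deposited by the authors; the submitters' processing notes name RMA and Affymetrix Expression Console 1.1, with no role given, and no genome build was found there. Intensities were quantile-normalized over the 13 arrays and log2-transformed after adding 16. The number of arrays limits the precision.

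Of 35556 probe sets, the platform annotation gave 1 symbol for 21789, several for 1621 and no entry for 12146. Of the entries with 1 symbol, 21698 were matched to GRCm38.p6 and took its name, whether or not that name differed. The brightest probe set stood for each of 19938 genes, and those whose mean level lay under the 25th percentile were dropped, which left 14953. limma 3.58.1 in R 4.3.3 (lmFit, eBayes) fitted 5 groups and array run (1 or 2, from the run date in the array names of the labels) over all 13 arrays, with 7 residual degrees of freedom. P-values were adjusted by Benjamini-Hochberg over all genes tested. An exact permutation test of 2 arrays against 2 cannot go below 0.333, so none was run.

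The text names Rb1, the 15 called genes of largest change in each direction, and the called members of each of 45 lists (up to 6, or where none was called the 2 of smallest p). Any other gene named was picked once its values were known. The comparison, its members and the lists were chosen with earlier results of these data known. The scripts were tested on simulated data. Alternatives changed the offset, filter, normalization, run term, arrays, probe sets and variance model.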

Additional observations from a re-analysis of the deposited data

Results flagged for a closer look

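Probe sets that have no gene name in the annotation used, and so stand outside the comparison above, also passed limma's test for DEN against untreated wild type liver when all probe sets were tested. They were singled out because they are a signal in data that the comparison leaves out. Of 7087 tested probe sets with no entry in the annotation 18 were called (0.254%), 13 higher and 5 lower. Among them was probe set 10510221, at 5.55 and 4.23 untreated and at 10.40 and 8.83 after DEN (5.05 ± 0.48, adjusted p = 0.000694); 1 untreated array lay at the dim end of the scale, so the size is uncertain. Probe sets 10508800 and 10573865 had identical values in all 4 arrays (5.55 and 5.12 untreated, 10.51 and 9.19 after DEN) and count as 1 measurement. Of 1357 tested probe sets with several gene symbols 13 were called (0.958%), 5 higher and 8 lower, with probe set 10435497 the lowest (-3.48 ± 0.37). The symbols of these 13 were not looked up, so whether Cdkn1a or Trp53 is among them is not stated here. Among those higher, 10443463 was at 7.59 and 8.62 untreated and at 10.36 and 9.98 after DEN (2.22 ± 0.38, adjusted p = 0.0345). Among those lower, 10403957 and 10408092 had identical values in all 4 arrays. Probe sets 10408243, 10404067 and 10408074 lay close to them, and 10439292 lay close to 10435497. These are not separate measurements, so this share is not one of independent genes. Among probe sets with 1 symbol 53 of 18223 were called (0.291%).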

How the results depend on the processing

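The number of genes called, 103 (45 higher, 58 lower), depended on the processing. Every one of the 103 that was tested kept its direction under all 28 alternatives. These alternatives reuse the arrays from which the genes were chosen, so the kept direction is no independent support. Calls numbered 51 (22 higher, 29 lower) with an offset of 1, 193 (86, 107) with 50, 48 (22, 26) with no offset, 63 (32, 31) with median-centring in place of quantiles, 37 (16, 21) with no run term and 26 (14, 12) when the Y-linked level was added as a covariate. They numbered 1 (1, 0) in run 1 alone, 2 (1, 1; Igf2 and Sult1e1) with the 4 arrays alone, 226 (102, 124) without the 2 knockout arrays and 211 (98, 113) with a robust variance trend. Without one array at a time, calls ran from 4 to 226, higher ones from 3 to 102 and lower ones from 1 to 124. An alternative chosen after seeing the data, the 4 arrays with the 7 treated heterozygous and N750F arrays and no run term, gave 42 (15, 27). The cause was not tested. With no filter, a filter at the 50th percentile, array weights or the mean over probe sets, counts stayed within 1.5 times. Fits with fewer arrays have fewer residual degrees of freedom (4 in run 1 alone, 2 with the 4 arrays alone). Cpa1, an uncalled pancreatic gene at -0.14, changed sign to 0.022 in run 1 alone, and ran from -0.41 to 0.054 when single arrays were left out. No paired analysis was possible because the untreated arrays carry the numbers 1 and 2 and the DEN arrays 3 and 4, so the groups share no replicate number. Signal over background limits genes near the dim end, where Y-linked genes of female arrays lay at 4.13 to 4.94. Folds also depend on the offset where a group lay under 5.94, as for Cdc20, S100a8 and Ugt3a1 after DEN.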
